A study of Mus musculus with 8 samples.

Results

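The Iroquois homeobox genes of the mouse, Irx1 to Irx6, were taken by name from 2 tables of read counts of the embryonic trachea, where all 6 were among the 23478 gene rows of each table. They lie in 2 genomic clusters of 3 genes, Irx3, Irx5 and Irx6 on chromosome 8 and Irx1, Irx2 and Irx4 on chromosome 13. The family was chosen by its mutant and control CPM in both tables, so those values describe the members and test nothing about them. All embryos were at E13.5. Whole tracheas came from 1 library of Wls flox/flox, ShhCre+ embryos and 2 libraries of Wls flox/flox controls. Sorted tracheal cells, labelled chondroblasts, came from 2 libraries of Bmp4flox/flox, γSMAeGFP embryos that also carried a Cre driver and 3 libraries of Bmp4flox/flox, γSMAeGFP controls. The sort kept cells negative for the epithelial surface protein EPCAM and for GFP, which the γSMAeGFP transgene makes under a smooth muscle actin promoter. Floxed alleles were thus in every library, whereas Cre was in the mutants alone. ShhCre is an insertion that replaces 1 copy of Shh, and in both series the Cre allele and the deletion cannot be told apart.

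Iroquois genes encode transcription factors of the TALE homeobox class, named for the Iroquois complex of Drosophila, where they set up territories that later form sensory bristles and veins. In mammals they pattern the heart, limb, nervous system and eye, and in the embryonic mouse lung several members are known from the epithelium. Neighbouring members of a cluster share enhancers and are often transcribed in the same places. Wls carries Wnt proteins out of the cell, and ShhCre removes it in the endoderm that forms the airway epithelium. Bmp4 is a secreted signal made in the tracheal mesenchyme.

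The homeobox is where the members resemble each other most, so it bears on how well short reads can be given to 1 member. A coding stretch of 88 bases is shown for each gene, with capitals at the bases that differ from Irx3, read from the mm10 genome (GRCm38) with GENCODE M21 exons and written 5′ to 3′ on the strand of the gene.
Irx3: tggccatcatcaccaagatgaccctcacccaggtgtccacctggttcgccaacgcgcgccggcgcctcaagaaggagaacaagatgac
Irx5: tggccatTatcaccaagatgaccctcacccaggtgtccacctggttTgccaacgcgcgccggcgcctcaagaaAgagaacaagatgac
Irx6: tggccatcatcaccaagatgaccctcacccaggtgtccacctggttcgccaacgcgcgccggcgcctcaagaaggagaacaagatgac
Irx1: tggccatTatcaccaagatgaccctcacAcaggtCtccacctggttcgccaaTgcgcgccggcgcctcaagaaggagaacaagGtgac
Irx2: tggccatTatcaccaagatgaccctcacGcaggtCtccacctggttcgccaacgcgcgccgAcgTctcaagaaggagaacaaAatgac
Irx4: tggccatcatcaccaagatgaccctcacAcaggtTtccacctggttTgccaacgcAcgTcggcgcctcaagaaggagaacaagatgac
Irx3 lies on the minus strand at chr8:91798525-91802067, with the stretch at chr8:91800491-91800578 in exon 2. Irx5 lies on the plus strand at chr8:92357625-92376286, with the stretch at chr8:92359733-92359820 in exon 2. Irx6 lies on the plus strand at chr8:92674288-92680956, with the stretch at chr8:92677342-92677429 in exon 4. Irx1 lies on the minus strand at chr13:71957921-71963723, with the stretch at chr13:71959987-71960074 in exon 2. Irx2 lies on the plus strand at chr13:72628820-72634198, with the stretch at chr13:72630770-72630857 in exon 2. Irx4 lies on the plus strand at chr13:73260479-73269608, with the stretch at chr13:73267629-73267716 in exon 5. Irx6 did not differ from Irx3 at any of the 88 bases, Irx5 differed at 3, Irx1 and Irx4 at 5 each, and Irx2 at 6. Over the annotated transcripts the longest exact run shared by a pair of members was 23 to 88 bases, with a median of 32 over the 15 pairs. Reads inside the shared stretch of Irx3 and Irx6 cannot be told apart. The antisense gene Irx3os overlaps Irx3 and the antisense gene Gm45505 overlaps Irx6. Neither has a row under that name, and whether counting used strand is not given in the sources used here.

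The Bmp4 mutant libraries held 12964287 and 15462780 counts and their controls 48876948 to 55492747, with 24596836 in the Wls mutant trachea against 27237573 and 31399982 in its controls. Values below are CPM, counts brought to a common library size with edgeR's TMM factors, unless stated otherwise. Wls, the gene deleted in the trachea series, stood at 65.8 CPM in the mutant library, against 153 CPM in control 1 and 146 CPM in control 2. Bmp4 had 24.1 and 32.2 CPM in the Bmp4 mutant cells against 124, 99.2 and 121 CPM in their controls. The 12 cartilage markers summed to 708 and 1828 CPM in the Bmp4 mutant cells and 2842 to 5867 CPM in the controls, where the cartilage gene Matn1 was at 0 in 2 of 3 libraries. The Bmp4 mutant libraries carried counts over genes that were silent in all 3 controls, as given with the sorted cells. The 2 tables came from different library kits and were tested separately.

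Loss of epithelial Wls was set against its controls for each member in whole trachea. Irx3 and Irx5 were the members with the largest increases and Irx1 and Irx2 had smaller ones, whereas Irx6 lay within its controls and Irx4 was low in every library. Irx3, which acts in limb patterning and in heart conduction, had 57.6 CPM in the Wls mutant trachea against 18.3 and 15.0 CPM in the controls. Its counts were 1405 in the mutant and 489 and 481 in the controls, and its log2 fold change was 1.80 ± 0.18 (SE of the edgeR fit). Irx5, its partner in heart and limb, had 33.4 CPM in the mutant against 11.7 and 8.77 CPM in the controls, a log2 fold change of 1.71 ± 0.20. Irx3 and Irx5 were thus each above both controls, and the share of all genes in that position was not counted. Irx6, known from retinal bipolar cells, had 1.64 CPM in the mutant against 1.08 and 1.80 CPM in the controls. The mutant value stood between the controls, and counts were low throughout, 40 in the mutant against 29 and 58.

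On chromosome 13, Irx2 had 33.1 CPM in the Wls mutant trachea against 14.5 and 15.6 CPM in the controls, a log2 fold change of 1.13 ± 0.19. Irx1, a member also known from the digits and the lung epithelium, had 24.4 CPM in the mutant against 14.2 and 9.95 CPM in the controls, a log2 fold change of 1.02 ± 0.21. Each stood above both of its controls. Irx4, a marker of the ventricles of the heart, had 0.574 CPM in the mutant against 0.822 and 2.15 CPM in the controls. Its counts were 14 in the mutant against 22 and 69, so its log2 fold change of -1.38 ± 0.62 rested mainly on control 2, without which it was -0.47.

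**Figure D1:**
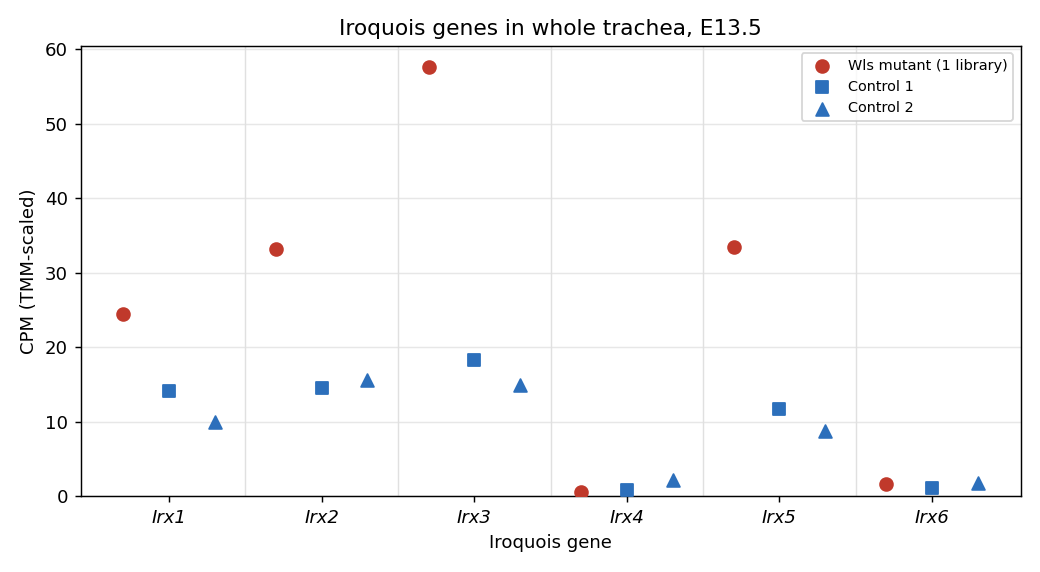
Level of each Iroquois gene in whole trachea, with CPM on the vertical axis, the gene along the horizontal axis, and a point per library for the Wls mutant and its 2 controls. The mutant point lies above both controls for Irx1, Irx2, Irx3 and Irx5, between them for Irx6 and below them for Irx4.

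By edgeR's quasi-likelihood test with Benjamini-Hochberg adjustment over all 15815 genes tested, 4 of the 6 members passed an adjusted p of 0.05 as higher in the Wls mutant (Irx1, Irx2, Irx3 and Irx5) and 0 as lower. Over all genes the share called higher was 1.88% and the share called lower 2.39%, and nothing is read from the members' count since the same contrast led to their choice. By size, with no test, a gene was marked when its mutant value was outside both controls and at least 2-fold from their mean, which took in Irx1, Irx2, Irx3 and Irx5 as higher and Irx4 as lower, beside 2.33% of all genes as higher, 2.73% as lower and 5.06% in either direction. Irx1, Irx4 and Irx2 passed that limit of size narrowly, with log2 differences of 1.04, -1.12 and 1.13, and Irx6 at 0.22 was well short of it. Of all genes tested, 93 had a larger increase than Irx3, 113 than Irx5, 298 than Irx2 and 373 than Irx1. The edgeR fit had 1 residual degree of freedom, from the controls, and the single mutant library gave no spread of its own. The fit also draws the spread of each gene toward a trend over all genes. Its SE and p-values thus do not rest on a member's own controls alone. DESeq2 called 3 members, losing Irx1 (adjusted p = 0.067).

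**Figure D2:**
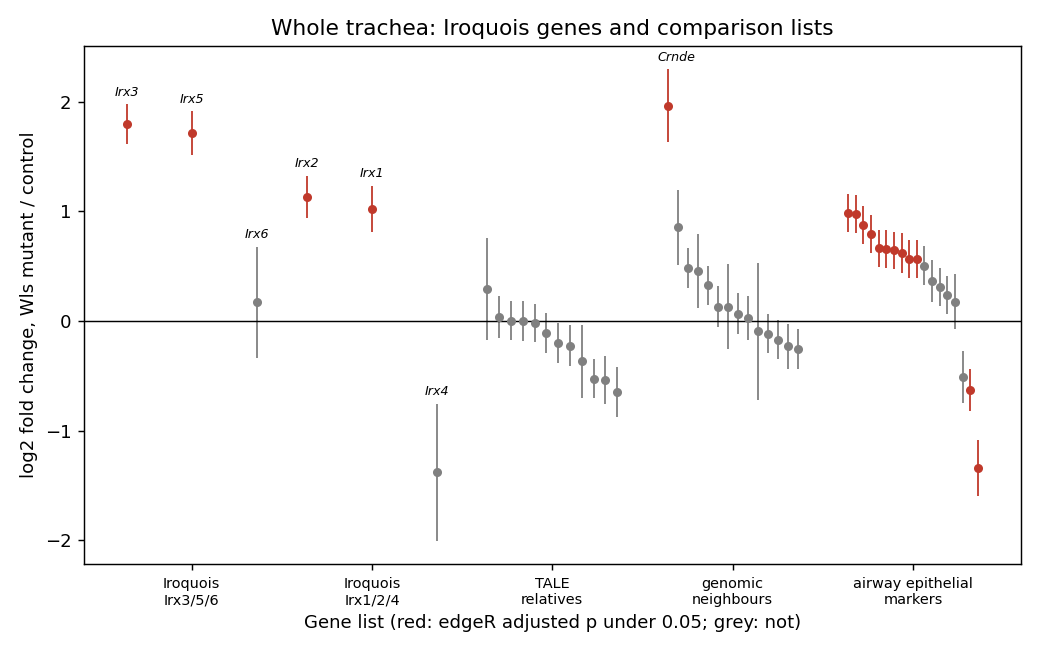
Log2 fold change in whole trachea, Wls mutant over control, on the vertical axis, for the Iroquois genes, their TALE relatives, their genomic neighbours and the airway epithelial markers, with bars for the SE of the edgeR fit and red for genes past an adjusted p of 0.05. Irx1, Irx2, Irx3 and Irx5 at 1.02 to 1.80 and the neighbour Crnde at 1.96 stand above the highest epithelial marker, Sox2, at 0.98.

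Levels were compared between genes as CPM of the library total per kilobase of exon. In the Wls mutant trachea the order was Irx3 at 20.7, Irx5 at 10.6, Irx2 at 10.01, Irx1 at 9.25, Irx6 at 0.483 and Irx4 at 0.218 CPM per kilobase. Exact Poisson intervals of the counts, which cover counting error alone, were 9.89 to 11.4 for Irx5, 9.33 to 10.7 for Irx2 and 8.52 to 10.02 for Irx1, so these 3 genes were not told apart in the mutant, and those of Irx6 and Irx4 also overlapped. In the controls Irx3 was again first, at 6.50 and 5.55 CPM per kilobase. Irx2 had 4.35 and 4.87, and Irx1 5.31 and 3.89, so their order differed between the controls. In control 1 the interval of Irx1, 4.79 to 5.87, overlapped that of Irx2. In control 2 the interval of Irx1, 3.48 to 4.34, lay below that of Irx2, 4.45 to 5.32. The latter overlapped that of Irx3 in control 2, 5.06 to 6.06. Irx5 had 3.67 and 2.87 CPM per kilobase in the controls, below each of those genes. In control 1, however, its interval of 3.28 to 4.11 overlapped that of Irx2, 3.93 to 4.81. Irx6 at 0.316 and 0.548 and Irx4 at 0.310 and 0.843 CPM per kilobase also overlapped in the controls.

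Within clusters the members moved together in part. Summed over Irx3, Irx5 and Irx6, the level was 92.6 CPM in the Wls mutant trachea against 31.0 and 25.5 CPM in the controls, a log2 ratio of 1.71. Summed over Irx1, Irx2 and Irx4, it was 58.1 CPM in the mutant against 29.5 and 27.7 CPM in the controls, a log2 ratio of 1.02. The chromosome 8 cluster held 61.5% of the family's counts in the mutant (95% Wilson interval 59.9 to 63.0). It held 51.3% (48.8 to 53.7) and 48.0% (45.6 to 50.3) in the controls, so the mutant's interval lay above those of both controls. These intervals cover counting error alone. The ratio of Irx3 to Irx5 counts was 1.72 in the mutant, against 1.56 and 1.71 in the controls, and that of Irx1 to Irx2 was 0.738 in the mutant, inside the 0.974 and 0.637 of the controls. The controls differed more from each other in the ratio of Irx1 to Irx2 than in that of Irx3 to Irx5.

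Airway epithelial markers moved with these levels. The 18 markers, all detected in every trachea library, summed to 1615 CPM of the library total in the Wls mutant against 1164 and 997 CPM in the controls. Of them 10 were called higher and 2, Krt19 and the basal cell keratin Krt5, lower, with a median log2 fold change of 0.57 and a range of -1.34 for Krt5 to 0.98 for Sox2. In bulk tissue, more cells of a type and more RNA per cell cannot be told apart. Per 1000 counts of the markers, Irx3 had 35.4 in the mutant against 15.4 in each control, and Irx5 had 20.5 against 9.87 and 9.01. On the same scale Irx2 had 20.3 in the mutant against 12.3 and 16.0, and Irx1 had 15.0 against 12.0 and 10.2. The 4 genes stayed above both controls on this scale, which was chosen after the data were seen. The log2 ratios were 1.20 for Irx3, 1.12 for Irx5, 0.52 for Irx2 and 0.44 for Irx1, and Irx6 turned to -0.46. The part of the other cell types was not tested: the 9 smooth muscle markers summed to 2824 CPM in the mutant against 2059 and 1797 CPM in the controls, and cartilage markers to 752 CPM against 2008 and 1765 CPM. Skeletal muscle markers summed to 443 CPM in the mutant against 479 and 377 CPM, a sum set mostly by Actc1, at 263 CPM against 397 and 297 CPM. By edgeR, however, 4 of the 8 skeletal muscle markers were called higher and 0 lower. Their median log2 fold change was 0.84, above that of the epithelial markers. Thyroid markers summed to 10.001 CPM in the mutant against 4.81 and 4.97 CPM. Neural markers summed to 233 CPM in the mutant against 226 CPM in each control, endothelial markers to 318 CPM against 395 and 460 CPM, leukocyte markers to 85.9 CPM against 77.3 and 64.3 CPM, and mesothelial markers to 40.7 CPM against 57.9 and 46.7 CPM.

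The promoter sequences of the members that the RefSeq promoter table holds, from 250 bases before to 50 bases after the gene start, are given because the study deleted a Wnt secretion factor and a BMP ligand, whose pathways end in factors with known DNA sites. Starts are those of RefSeq, and the start of Irx3 lies downstream of the outer end of the GENCODE gene given above, so its window falls inside that gene. Capitals mark motif matches.
Irx3: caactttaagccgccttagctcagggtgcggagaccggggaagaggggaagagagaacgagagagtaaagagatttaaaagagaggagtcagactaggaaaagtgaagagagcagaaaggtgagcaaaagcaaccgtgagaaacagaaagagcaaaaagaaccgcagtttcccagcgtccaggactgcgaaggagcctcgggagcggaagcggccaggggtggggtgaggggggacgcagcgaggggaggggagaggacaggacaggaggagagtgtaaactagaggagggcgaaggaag
Irx2: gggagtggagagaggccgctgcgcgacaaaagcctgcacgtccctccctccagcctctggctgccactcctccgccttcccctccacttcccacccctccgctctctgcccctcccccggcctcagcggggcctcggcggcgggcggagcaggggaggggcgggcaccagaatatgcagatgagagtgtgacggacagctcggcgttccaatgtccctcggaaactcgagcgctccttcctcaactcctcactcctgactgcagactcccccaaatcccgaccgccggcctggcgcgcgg
Irx4: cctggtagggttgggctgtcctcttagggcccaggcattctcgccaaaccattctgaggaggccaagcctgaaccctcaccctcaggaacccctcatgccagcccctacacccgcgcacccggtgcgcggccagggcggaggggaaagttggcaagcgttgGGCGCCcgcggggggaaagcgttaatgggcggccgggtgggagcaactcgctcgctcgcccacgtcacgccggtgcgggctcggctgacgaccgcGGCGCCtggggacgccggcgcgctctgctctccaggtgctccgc
They are at chr8:91801605-91801904 on the minus strand for Irx3, chr13:72628570-72628869 on the plus strand for Irx2 and chr13:73260247-73260546 on the plus strand for Irx4, in GRCm38.p6. Both strands were searched for ACANNTGT, the site of Iroquois factors, CTTTGAT, the site of TCF/LEF factors at the end of the Wnt pathway, GGCGCC, a site of SMAD factors of the BMP pathway, TATAAA, the TATA box, and GACCACCCA, the site of Gli factors of the hedgehog pathway. The promoter of Irx4 held GGCGCC at bases 162 and 257, counted from 1 at the 5′ end, with no overlap with another motif, and the promoters of Irx3 and Irx2 held none of the 5 motifs in these letters. Over all 32851 promoters of the table, 7.38% held ACANNTGT, 3.73% CTTTGAT, 11.9% GGCGCC, 13.6% TATAAA and 0.253% GACCACCCA. The content of G and C was 56.0% for Irx3, 69.0% for Irx2 and 70.7% for Irx4, against a median of 52.7% over all promoters.

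Other genes of the family's surroundings were read from the same fit. The 12 relatives of the TALE class are cofactors and repressors that share its homeobox. In whole trachea 0 of the 12 were called by edgeR in either direction, beside 4.27% of all genes, and 3 had an unadjusted p under 0.05, while DESeq2 also called 0. Their median log2 fold change was -0.16 against -0.01 for all genes tested. Mkx, the relative closest to the Iroquois genes and a regulator of tendon, had 4.26 CPM in the Wls mutant against 6.16 and 4.85 CPM in the controls. Of 9 genes tied to Iroquois factors in mouse heart, limb, branchial arches or growth plate, 8 passed the filter on low counts. Only Gja5, a gap junction gene of heart conduction and arteries, was called lower in the Wls mutant, with 24.7 CPM against 42.1 and 36.4 CPM in the controls (log2 fold change -0.67 ± 0.19, edgeR adjusted p = 0.019). DESeq2 called 0 of the 8, with 2 at an unadjusted p under 0.05.

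Of 23 genomic neighbours of the clusters, 14 were tested in whole trachea, 1 was called higher and 0 lower, beside 1.88% of all genes called higher and 2.39% lower. Crnde, a noncoding gene which RefSeq pairs with the row 4933436C20Rik of the count table, rose in the Wls mutant to 9.30 CPM against 1.38 and 3.33 CPM in the controls. Its log2 fold change was 1.96 ± 0.33 (edgeR, adjusted p = 2.4e-06). It lies at chr8:92326031-92356120 between Irx3 and Irx5 and ends just before the start of Irx5. Fto, the large gene on the other side of Irx3 whose introns are known to hold Irx3 and Irx5 enhancers, had 144 CPM in the Wls mutant against 160 and 163 CPM in the controls (adjusted p = 0.75). The mutant value of Fto lay under both controls, and edgeR did not call it.

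In sorted cells the family was low apart from Irx1 and Irx2 in control 3. The members that stood higher in the Bmp4 mutants had counts per kilobase there within the spread of genes silent in all 3 controls. Irx3 had 23 and 20 counts in the Bmp4 mutants against 0, 0 and 1 in the controls, although the controls were sequenced more deeply. A count of 0 allows up to 3 counts, or 0.054 CPM of the library total in control 1 and 0.061 CPM in control 2. Irx5 had 32 and 24 counts in the mutants against 2, 0 and 18. Irx6 had 48 and 10 counts in the mutants against 0, 0 and 2, and Irx4 had 31 and 7 against 6, 0 and 0. For Irx3, Irx4, Irx5 and Irx6 both mutants were above every control in CPM. The share of all genes with both mutants above every control was not counted, but edgeR called 39.3% of all genes higher. Nothing is thus read from that order. Pooled by group, the ratio of mutant to control CPM was 233 for Irx3 (exact interval of the counts 39.7 to 9417), 157 for Irx6 (41.6 to 1329), 34.3 for Irx4 (14.4 to 99.4) and 15.2 for Irx5 (8.97 to 26.7). The intervals cover counting error alone.

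Irx1 and Irx2 had another pattern, set by a single control. Irx1 had 6 and 3 counts in the Bmp4 mutants against 0, 12 and 330 in the controls, or 0.438 and 0.170 CPM against 0, 0.265 and 6.86 CPM. Irx2 had 28 and 20 counts in the mutants, while controls 1 to 3 had 8, 27 and 906, or 2.05 and 1.13 CPM against 0.156, 0.596 and 18.8 CPM. Control 3 was above all other sorted libraries for both genes, and both mutants were above the other controls for Irx2. The log2 fold change of Irx2 was -2.04 ± 1.78 with control 3 and 2.07 without it. In control 3 the 18 epithelial markers summed to 87.9 CPM, the lowest of the 5 sorted libraries, with Krt5 at 0 as in the other controls. Spint2 made up 50.05 CPM of that sum, and single markers went the other way, such as Cdh1 with 2.72 CPM in control 3 against 0.396 and 0.123 CPM in the other controls. The 8 skeletal muscle markers summed to 266 CPM in control 3, against 81.6 and 98.3 CPM in the other controls, and the part of these cells in the values of Irx1 and Irx2 was not tested.

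**Figure D3:**
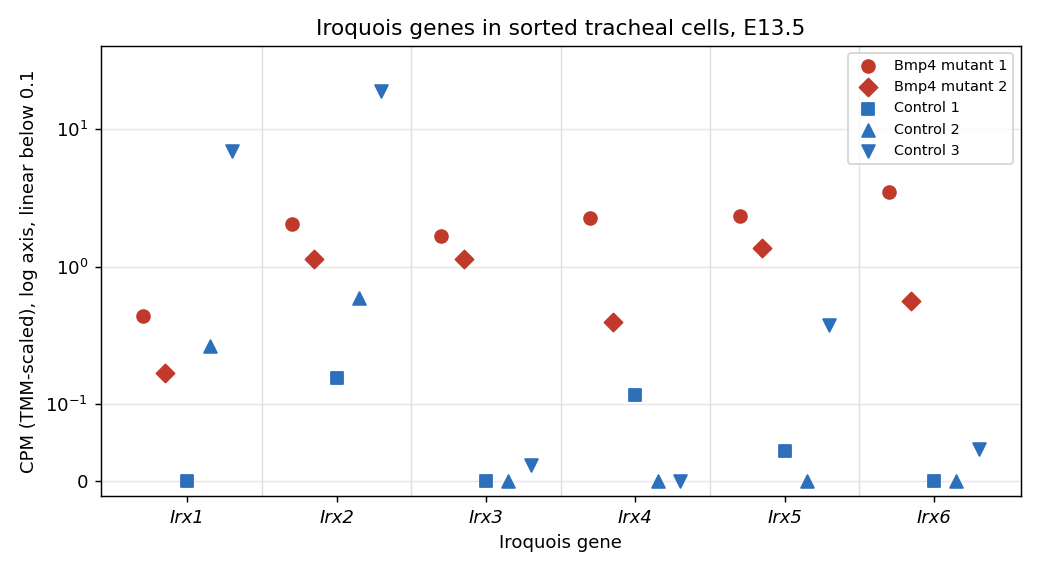
Level of each Iroquois gene in sorted tracheal cells, with CPM on a vertical log axis that is linear near 0 and a point per library for the 2 Bmp4 mutants and the 3 controls. Irx3, Irx4, Irx5 and Irx6 are higher in both mutants, and Irx1 and Irx2 are highest in control 3, at 6.86 and 18.8 CPM.

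The 4327 genes with a known exon length and no count in any sorted control carried 13.4 counts per kilobase of exon in Bmp4 mutant 1 and 12.4 in mutant 2. This density is called the background here, although a gene expressed in the mutant cells alone would count in it too. The part of such genes was not tested. Spread evenly over all exons, that density would make up 10.2% and 7.89% of the counts of those libraries. At that density, 1 of the 12 mutant values of the Iroquois genes exceeded its expected background, Irx6 in mutant 1 with 48 counts, 1.07 times the expected number. The 12 ratios ranged from 0.093 to 1.07, with a median of 0.604. Among 1444 silent genes of 2 to 5 kilobases, the median density was 9.16 counts per kilobase in mutant 1, with quartiles at 3.05 and 20.7, and the 6 members had 2.29 to 14.2. In mutant 2 the median was 8.60, with quartiles at 3.19 and 18.3, and the members had 1.15 to 7.68. All 6 members thus lay below the upper quartile of silent genes in both mutants, and at this depth their expression in the Bmp4 mutant cells was not detectable above it.

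**Figure D4:**
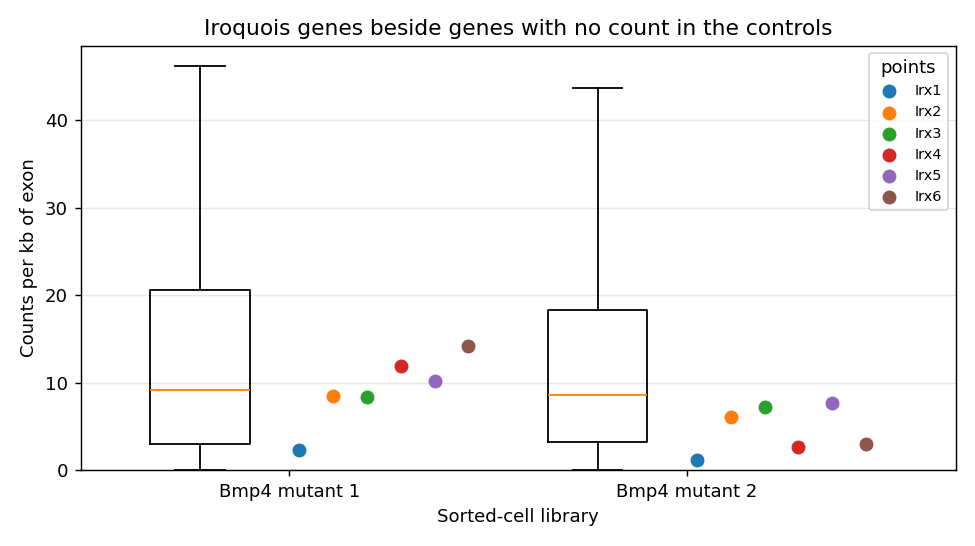
Counts per kilobase of exon in the 2 Bmp4 mutant libraries, for 1444 genes of 2 to 5 kilobases with no count in the controls (box for the quartiles, line for the median, whiskers from the lowest 5% to the highest 5%) and for each Iroquois gene as a point. The members lie at 2.29 to 14.2 in mutant 1 and 1.15 to 7.68 in mutant 2, below the upper edge of the box.

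EdgeR called 4 of the 6 members higher in the Bmp4 mutants (Irx3, Irx4, Irx5 and Irx6) and 0 lower, beside 39.3% of all 21665 genes tested called higher, 15.6% called lower and 54.9% in either direction. Nothing is read from that count, which was 0 without mutant 1 (1 member at an unadjusted p under 0.05) and 2 without mutant 2. After the background was subtracted, only Irx1 and Irx2 passed the filter on low counts. Of these 2 members, 0 were called by edgeR and 1 had an unadjusted p under 0.05. Beside them, 20.3% of all genes were called higher, 8.8% lower and 29.1% in either direction. Irx3, Irx4, Irx5 and Irx6 were not tested there, since the subtraction itself took their mutant values to 0, except Irx6 in mutant 1. Summed levels of Irx3, Irx5 and Irx6 were 7.52 and 3.06 CPM in the mutants against 0.039, 0 and 0.436 CPM in the controls, a log2 ratio of 5.06 that turned to -0.40 after subtraction. Summed levels of Irx1, Irx2 and Irx4 were 4.75 and 1.70 CPM in the mutants against 0.273, 0.860 and 25.7 CPM in the controls, a log2 ratio of -1.47 that turned to 2.51 without control 3. The chromosome 8 cluster held 61.3% (Wilson interval 53.8 to 68.3) and 64.3% (53.6 to 73.7) of the family's counts in the mutants. It held 2 of 16 counts in control 1, 0 of 39 in control 2, with an upper Wilson bound of 8.97%, and 21 of 1257 in control 3.

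The sort was set to remove epithelial and smooth muscle cells. Epithelial markers summed to 241 and 156 CPM in the mutants against 87.9 to 104 CPM in the controls, with Krt5 at 0 in all 3 controls and the 18 markers all detected in both mutants. Smooth muscle markers summed to 1728 and 381 CPM in the mutants against 215 to 233 CPM in the controls. Both sums were above every control in both mutants. Skeletal muscle markers summed to 399 and 227 CPM in the mutants against 81.6 to 266 CPM in the controls. Of the other lists, neural markers summed to 628 and 762 CPM in the mutants against 312 to 499 CPM, endothelial markers to 244 and 205 CPM against 37.0 to 121 CPM, and leukocyte markers to 259 and 258 CPM against 135 to 178 CPM. Mesothelial markers summed to 188 and 67.1 CPM in the mutants against 11.9 to 67.9 CPM, and thyroid markers to 51.9 and 32.5 CPM against 4.58 to 16.0 CPM. For skeletal muscle and mesothelium mutant 2 lay inside the range of the controls. The part of these cells in the Iroquois values was not tested.

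The TALE relatives were detected in every sorted library. Of the 12, 0 were called higher and 7 lower in the Bmp4 mutants, beside 39.3% of all genes called higher and 15.6% lower, with a median log2 fold change of -0.77 against 0.53 for all genes tested. The 11776 genes at 10 or more times the background had a median of -0.32, so the falls stand relative to that value. Tgif1, a repressor that acts with SMAD factors, fell to 63.2 and 92.9 CPM in the mutants against 131, 151 and 198 CPM in the controls (log2 fold change -1.04 ± 0.25, edgeR adjusted p = 0.010). Meis2, a homeobox cofactor, fell to 71.8 and 93.9 CPM in the mutants against 147, 160 and 190 CPM in the controls (-0.998 ± 0.193, edgeR adjusted p = 0.0046). Pbx2, another cofactor, fell to 12.9 and 14.7 CPM in the mutants against 28.8, 22.4 and 29.6 CPM in the controls (-0.96 ± 0.23, edgeR adjusted p = 0.012). Each of these 3 was below every control in both mutants. With scaling from genes above the background, 4 of the 12 were called lower and 1, Pbx4, higher, while Pbx2 was no longer called (edgeR adjusted p = 0.054). Mkx had 8.40 and 7.36 CPM in the mutants against 10.6 to 18.8 CPM in the controls (edgeR adjusted p = 0.074). Without mutant 1 the count of lower calls was 2, and Tgif1, Meis2 and Pbx2 were not among them.

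Among the 9 genes tied to Iroquois factors, 3 were called higher and 1 lower in the Bmp4 mutants, no larger a share than the 54.9% of all genes called in either direction. Gli3, the hedgehog effector that acts with Irx3 and Irx5 in the limb, fell to 54.3 and 71.6 CPM in the mutants against 143, 133 and 124 CPM in the controls (log2 fold change -1.08 ± 0.17, edgeR adjusted p = 0.0033). Cxcl12, a chemokine, rose to 587 and 602 CPM in the mutants against 249, 348 and 369 CPM in the controls (0.88 ± 0.20, edgeR adjusted p = 0.0095). Both calls held after the background was subtracted, but without mutant 1 Gli3 alone of the 9 was called. Bmp10, a heart ligand that was at 0 in all controls, and Ihh, a growth plate signal, were called higher at 2.34 and 1.25 CPM and at 5.99 and 1.53 CPM in the mutants. After subtraction Bmp10 did not pass the filter on low counts and Ihh was not called.

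Of the 23 neighbours 22 were tested in sorted cells, 12 were called higher and 2 lower, beside 39.3% of all genes called higher and 15.6% lower. The calls with the largest fold changes were Ces1a, 4930520P13Rik and 8030423J24Rik, which were at 0 in every control and at 0.340 to 5.55 CPM in the Bmp4 mutants, and Slc6a3, the dopamine transporter gene. Slc6a3 had 20.5 and 14.9 CPM in the mutants against 0, 0.265 and 0.042 CPM in the controls. Crnde, listed as 4933436C20Rik, had 1.61 and 2.95 CPM in the Bmp4 mutants against 0.332, 0.419 and 0.665 CPM in the controls, and was called higher (edgeR adjusted p = 0.027). That call was lost after background subtraction (adjusted p = 0.63) and when either mutant, control 1 or control 2 was left out. Fto had 183 and 250 CPM in the mutants against 318, 295 and 251 CPM in the controls (log2 fold change -0.41, edgeR adjusted p = 0.12). After subtraction 5 of the neighbours were called; leaving out mutant 1 gave 4 calls and leaving out mutant 2 gave 7.

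Genes whose pattern was most like that of each member were ranked by Pearson's correlation of log2(CPM + 1), centred within each table, over the 8 libraries and 11323 genes of at least 5 CPM on average in both tables. These correlations are a description, since the libraries share depth, background and 1 high control. Irx1 was most like Rprm (r = 0.990), Foxo1 (0.962) and Tefm (0.952), and Irx2 most like Foxo1 (0.985), Rprm (0.973) and Fhl3 (0.972). Rprm had 14.3 and 12.5 CPM of the library total in the Bmp4 mutants against 9.57, 12.6 and 70.8 CPM in the controls, and 24.8 CPM in the Wls mutant trachea against 11.1 CPM in each control. Control 3 was thus the high library for Rprm too. Irx3 was most like Rsph3b (0.969), Fam76a (0.961) and Ssr4 (0.959), and Irx5 most like Ssr4 (0.986), Il13ra1 (0.973) and Fam76a (0.967). The correlation takes no account of the size of a change. In the Wls mutant trachea Ssr4 had 58.5 CPM against 53.3 and 52.1 CPM in the controls, and Rsph3b had 45.7 CPM against 38.6 and 38.0 CPM. Il13ra1 had 104 CPM in the Wls mutant trachea against 62.2 and 52.1 CPM in the controls, and 40.8 and 41.5 CPM in the Bmp4 mutant cells against 17.7, 20.1 and 23.4 CPM. Among the members themselves, Irx3 and Irx5 had a correlation of 0.984 and Irx1 and Irx2 of 0.965, whereas Irx1 and Irx3, in different clusters, had 0.032. The correlations did not follow the clusters throughout. Irx4 and Irx6, in different clusters, had 0.914. Within clusters, Irx3 and Irx6 had 0.656, Irx5 and Irx6 0.700, Irx2 and Irx4 -0.121 and Irx1 and Irx4 -0.339.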

How the data were processed

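RNA of whole trachea (3 libraries) and of sorted tracheal cells (5 libraries) was sequenced, per the labels' protocols, after Ovation and Nextera XT or SMART-Seq and Nextera XT preparation. The authors deposited raw counts per gene, 1 table for each kind of sample. Bowtie2, Cufflinks, DESeq, Trim Galore and mm10 are listed, per the submitters' processing notes, without their roles; the counting program and its use of strand were not stated in what was used. Groups came from the labels, which do not state that libraries are from separate animals, so p-values measure the spread between these libraries.

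Each table was fitted whole with edgeR 4.0.16 in R 4.3.3 (filterByExpr, TMM, quasi-likelihood F test, Benjamini-Hochberg, call at adjusted p under 0.05), with no covariate. Alternatives were DESeq2 1.42.0, other scaling, no filter, background subtraction, leaving out each library, and a replicate block. Sequences, positions and exon lengths came from GENCODE M21 and the RefSeq tables of GRCm38.p6. The density of background was the summed count of genes at 0 in all sorted controls over their summed exon length, subtracted by exon length for the mutants. Replicate libraries differed by more than sampling noise, with chi-square per degree of freedom of 23.4 to 184. The fit was tested on simulated data. Named were all members; of each list the called genes with the largest changes, at most 4 per table, with Mkx, Fto and Crnde; and the 3 genes most like each member of at least 5 CPM. Some items are not reported here. Members and lists were chosen with earlier results of these data known.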

Additional observations from a re-analysis of the deposited data

How the results depend on the processing

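In whole trachea the calls of Irx2, Irx3 and Irx5 held under the other scaling, DESeq2 and no filter, and the family's count was 4 or 3. DESeq2 called 0 of the genes tied to Iroquois factors in trachea, against 1. Scaled to the 18 epithelial markers, an alternative chosen after the data were seen, the summed trachea levels gave log2 ratios of 1.12 for Irx3, Irx5 and Irx6 and 0.42 for Irx1, Irx2 and Irx4, and Irx6 turned to -0.46; this scaling divides out the epithelial sum by construction. In sorted cells the count of called members was 4, with 0 after background subtraction and 0 to 4 when each library was left out; the counts were 2 to 7 for the TALE relatives (7), 1 to 5 for the genes tied to Iroquois factors (4, and 2 after subtraction) and 4 to 16 for the neighbours (14, and 5 after subtraction). The summed log2 ratio of Irx1, Irx2 and Irx4 ran from -2.40 to 2.51 and that of Irx3, Irx5 and Irx6 from 4.27 to 8.08 with a library left out. After subtraction the second was -0.40, resting on Irx6 in mutant 1 alone, and the first had no value, since the mutants were at 0. Irx1 and Irx2 alone of the members were tested after subtraction, so the count of 0 covers none of the 4 called before. Irx2 ran from -2.69 to 2.07 with a library left out, 2.07 without control 3. Scaling from genes above the background moved the median of all genes to 0.84, against 0.53. Apart from construction, the cause of these changes was not tested.

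With the replicate number as a block, which left 1 residual degree of freedom and dropped control 3, as it has no numbered partner, edgeR called 0 in each list of sorted cells, with 3 members, 6 TALE relatives, 3 genes tied to Iroquois factors and 8 neighbours at an unadjusted p under 0.05, and Irx1 and Irx2 turned to 1.87 and 2.24. The deviations of same-numbered libraries had correlations of -0.31 and -0.22. Those of mutant 1 and mutant 2 mirror each other, as both are taken from their shared mean. The correlations thus cannot decide whether the numbers pair the libraries, and the main fit assumed no pairs. No paired analysis was possible because the Wls mutant trachea is a single library with no number to match. With 14 to 69 counts for Irx4 and 29 to 58 for Irx6 in trachea, and under 60 in each sorted mutant for each member, depth limits what those genes can show.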
